A study of Mus musculus with 2 samples.

Results

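Glycolysis and hypoxia response genes were examined as a set of 32 genes, from the glucose transporters at the cell surface to the lactate exporter, together with genes that hypoxia-inducible factor is known to control. Members were found by their gene symbol, among 31053 rows of the deposited count matrix. All 32 were present, Aldoa as 2 rows that were summed, and they held 476828 of the 28165690 unique molecular identifiers (UMIs, tags that count original RNA molecules), or 1.69%. The rule uses gene symbols and no measured value, but the members were chosen with earlier results of these data known.

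Glucose enters a cell through Slc2a transporters and is trapped by hexokinases, and the enzymes downstream split it to pyruvate, which Ldha reduces to lactate for export by Slc16a3. When oxygen is low, the prolyl hydroxylases of the Egln family no longer mark Hif1a for breakdown through Vhl, and the factor then raises transcription of many glycolytic genes and of genes such as Bnip3, Hilpda and Egln3 itself. Neutrophils have few active mitochondria and are known to rely on glycolysis for their energy.

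The samples were tumor-associated neutrophils (TANs), sorted as CD11b+Ly6G+ cells from subcutaneous tumors of Lewis lung carcinoma (LLC), a transplantable mouse lung cancer line. The hosts were C57BL/6J mice of 8 to 12 weeks that were either wild type for Smad3 (Smad3-WT) or carried the germline deletion on both alleles (Smad3-KO, Smad3-/-), so the deletion was in the host cells and not in the inoculated LLC line. For each genotype, 8 tumors were pooled into 1 library, made with a 5′ kit, so no error between animals exists and no test of genotype was possible. Smad3-WT gave 4116 barcodes with 23951400 UMIs in total, and Smad3-KO gave 2514 barcodes with 4214290 UMIs.

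Although labelled as neutrophils, the libraries held several cell classes. Of the barcodes that passed the filters, 1820 Smad3-WT and 973 Smad3-KO cells lay in neutrophil-like clusters, and 1091 and 113 lay in macrophage or monocyte-like clusters. The Smad3-WT library also held 586 carcinoma-like cells, with a median of 20590 UMIs against 740 in its neutrophil-like cells. The 20 barcodes with that name in Smad3-KO were not used, since 19 of them carried a barcode that the Smad3-WT library also held. In all, 73 barcode sequences occurred in both libraries. Neutrophil-like cells of Smad3-WT held 26.7 CPM (UMIs of the gene per 1e6 UMIs of the cells) of 5 summed carcinoma markers, while all 5 were at 0 in Smad3-KO neutrophil-like cells. Hemoglobin genes, as markers of red cells, summed to 217 CPM in neutrophil-like cells of Smad3-WT and were at 0 in those of Smad3-KO. Over all cells that passed the filters, these genes summed to 22.2 CPM in Smad3-WT and 419 CPM in Smad3-KO. The part of such RNA in the comparisons of genotype was not tested. Tags of a 5′ kit lie upstream of the part of Smad3 that is deleted, so the Smad3 count (16.1 CPM in Smad3-WT and 168 CPM in Smad3-KO neutrophil-like cells) checks nothing about the genotype.

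In the mouse genome build GRCm38, Gapdh, the enzyme that oxidizes glyceraldehyde phosphate, lies on the minus strand at chr6:125161715-125166467. Gm3839 lies on the minus strand at chr14:11280735-11356726 and has an annotated transcript that aligned to Gapdh with 99.2% identity over 1201 bases, with 8 substitutions. Since Gm3839 had the most extreme ratio of the 32 genes between the genotypes, a coding stretch of 30 bases is shown in which they differ. The substitutions, counted from base 1 of the Gapdh transcript, are G137A and T155C, with the differing bases in capitals.
Gapdh, exon 3, chr6:125163392-125163421, minus strand: gcgcctGgtcaccagggctgccatTtgcag
Gm3839, exon 4, chr14:11281866-11281895, minus strand: gcgcctAgtcaccagggctgccatCtgcag

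Hypoxia-inducible factor is known to bind a core that reads ACGTG or GCGTG. Promoter windows from RefSeq (GRCm38.p6), which run from 250 bases before to 50 bases after a gene's start, were found for 28 members, Ero1l under the symbol Ero1a. No entry was matched for Slc2a3, Gm3839, Bnip3l or Ndrg1. On either strand, ACGTG or GCGTG was present in 32 of the 38 windows of members (84.2%) and in 14380 of all 32851 windows (43.8%). The median GC content was 64.5% for windows of members and 52.7% for all windows, and its part in the difference was not tested. Windows are shown for hypoxia response members with high counts here, with each match in capitals on the strand of the gene, so that CACGT and CACGC are the cores read from the opposite strand, and CACGTG holds ACGTG on both.
Hilpda, chr6:29272238-29272537, plus strand: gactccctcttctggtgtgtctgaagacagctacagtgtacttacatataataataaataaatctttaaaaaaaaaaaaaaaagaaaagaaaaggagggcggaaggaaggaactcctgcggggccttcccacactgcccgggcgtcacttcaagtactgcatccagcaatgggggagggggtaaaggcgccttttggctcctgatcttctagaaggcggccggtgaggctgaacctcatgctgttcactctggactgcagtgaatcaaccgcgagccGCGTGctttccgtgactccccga
Bnip3, chr7:138909457-138909756, minus strand: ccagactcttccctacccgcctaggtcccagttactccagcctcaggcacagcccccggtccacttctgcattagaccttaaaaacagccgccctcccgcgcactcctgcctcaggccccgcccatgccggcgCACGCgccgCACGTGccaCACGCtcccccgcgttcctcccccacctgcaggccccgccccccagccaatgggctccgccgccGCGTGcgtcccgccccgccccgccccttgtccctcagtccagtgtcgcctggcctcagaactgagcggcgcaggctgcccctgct
Hif1a, chr12:73907617-73907916, plus strand: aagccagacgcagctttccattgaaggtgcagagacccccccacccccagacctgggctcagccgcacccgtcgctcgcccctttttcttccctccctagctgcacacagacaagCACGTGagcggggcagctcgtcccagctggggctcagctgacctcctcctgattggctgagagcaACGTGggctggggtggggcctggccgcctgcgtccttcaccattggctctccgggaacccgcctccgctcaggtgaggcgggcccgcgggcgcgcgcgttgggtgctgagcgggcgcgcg
Mif, chr10:75860228-75860527, minus strand: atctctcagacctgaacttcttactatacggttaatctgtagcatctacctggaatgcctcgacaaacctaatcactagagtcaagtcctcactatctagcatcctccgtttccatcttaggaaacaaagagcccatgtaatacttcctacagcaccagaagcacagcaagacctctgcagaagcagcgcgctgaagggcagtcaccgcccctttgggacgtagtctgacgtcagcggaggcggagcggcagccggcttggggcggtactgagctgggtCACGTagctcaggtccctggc
Bnip3 had 2 matches of ACGTG and 3 of GCGTG, Hif1a had 3 of ACGTG, and Mif and this window of Hilpda had 1 match each. A match of these letters is a description of the window and not a measured binding site.

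The share of all UMIs that the 32 genes took was 1.81% (95% interval 1.79 to 1.83) in Smad3-WT neutrophil-like cells and 1.98% (1.96 to 2.01) in Smad3-KO neutrophil-like cells. Macrophage or monocyte-like cells had 2.31% (2.30 to 2.33) in Smad3-WT and 0.897% (0.862 to 0.932) in Smad3-KO. All intervals are exact, at the 95% level, and cover counting error only. Thus the share was higher in macrophage or monocyte-like cells than in neutrophil-like cells of Smad3-WT, and the order was the opposite in Smad3-KO. In Smad3-WT dendritic-like, T or NK-like and fibroblast-like cells the share was 1.26%, 1.49% and 1.11%, against 0.603%, 0.620% and 0.789% in Smad3-KO, and B-like cells of Smad3-KO, the lowest class, had 0.466%. Carcinoma-like cells of Smad3-WT had 1.73% (1.72 to 1.74). Among the classes of a library, the level was highest in neutrophil-like cells for 27 of 32 members in Smad3-KO and for 14 in Smad3-WT, where macrophage or monocyte-like cells were highest for 12. Over all genes with at least 20 UMIs in these classes, neutrophil-like cells were highest for 11.5% of 9736 in Smad3-KO and 13.9% of 12240 in Smad3-WT, and macrophage or monocyte-like cells of Smad3-WT for 7.88%.

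**Figure D1:**
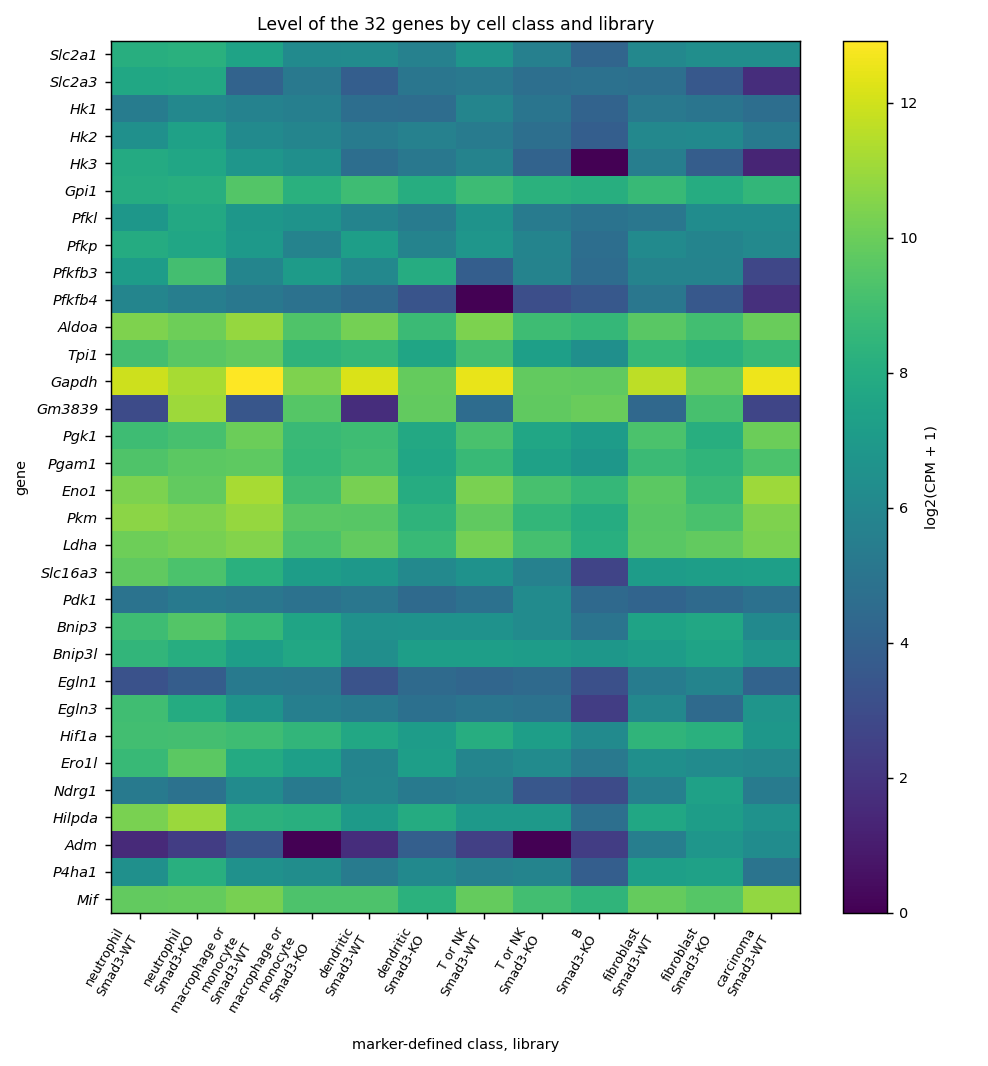
Level of each of the 32 genes in each cell class and library, in CPM on a log scale (colour), with genes in rows and classes in columns. Hilpda was at 1264 CPM in Smad3-WT and 1986 CPM in Smad3-KO neutrophil-like cells against 96.3 CPM in carcinoma-like cells.

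Among hypoxia response genes of Smad3-WT, Hilpda, Egln3, Hif1a, Bnip3, Bnip3l and Ero1l were highest in neutrophil-like cells of all classes. P4ha1 was highest in fibroblast-like and Mif in carcinoma-like cells. Egln1, Ndrg1 and Adm had their lowest values in neutrophil-like cells, but were not set apart there from every other class. Egln1 was at 8.69 CPM (4.75 to 14.6) there and at 8.93 CPM (2.43 to 22.9) in dendritic-like cells. For Ndrg1 the ratio of carcinoma-like to neutrophil-like cells was 1.02 (0.785 to 1.35). Adm rested on 3 UMIs in neutrophil-like and 1 UMI in dendritic-like cells. Hilpda, which holds triglyceride in lipid droplets by inhibiting their lipase, was at 1264 CPM (1210 to 1320) in Smad3-WT neutrophil-like cells and at 1986 CPM (1908 to 2067) in Smad3-KO neutrophil-like cells. It was at 314 CPM and 284 CPM in the macrophage or monocyte-like cells of these libraries. At 500 UMIs drawn per cell, a Hilpda UMI was present in 25.3% of neutrophil-like cells of Smad3-WT and in 49.8% of those of Smad3-KO, against 0.858% of B-like cells of Smad3-KO. Before this thinning the shares were 31.9%, 64.3% and 2.36%, at median depths of 740, 1032 and 1178 UMIs. After thinning, the share in Smad3-KO was 4.63% in T or NK-like and 8.55% in dendritic-like cells. Neutrophil markers summed to 1413 CPM in B-like, 4401 CPM in T or NK-like and 5814 CPM in dendritic-like cells of Smad3-KO. The part of free RNA in these shares was not tested. Smad3-WT had too few B-like cells, and of its T or NK-like cells 0 of 47 had a Hilpda UMI after thinning, with an interval up to 7.55%, and 21.3% before it, at a median of 3699 UMIs. Hif1a itself, the oxygen-regulated subunit of the factor, was at 523 CPM (488 to 560) in Smad3-WT and 537 CPM (497 to 580) in Smad3-KO neutrophil-like cells, with a ratio of 1.03 (0.925 to 1.14).

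Between the genotypes, neutrophil-like cells of Smad3-KO had 10 of the 31 members with enough UMIs at least 1.5-fold higher and 2 at least 1.5-fold lower than Smad3-WT, while 19 lay between. Over the 5917 genes tested alike, 12.6% were higher and 41.9% were lower by this fold. The 10 higher members include Gm3839 and Egln1, and the 2 lower ones include Gapdh. Gapdh and its near-identical copy Gm3839 had a ratio of 1.16 when summed, and the interval of Egln1 (0.690 to 3.34) held 1. The median ratio was 1.07 for the members and 0.747 for all genes, so levels in CPM were shifted downward in Smad3-KO for genes in general. A scaling by the median of ratios moved every log2 ratio of this comparison up by 0.42, which gave 14 members higher and 0 lower by the fold. All genes moved alike, so the 12.6% and 41.9%, which are for CPM, are no background for these counts. Adm, a vasodilator peptide, had 3 to 5 UMIs in each group and was not compared.

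**Figure D2:**
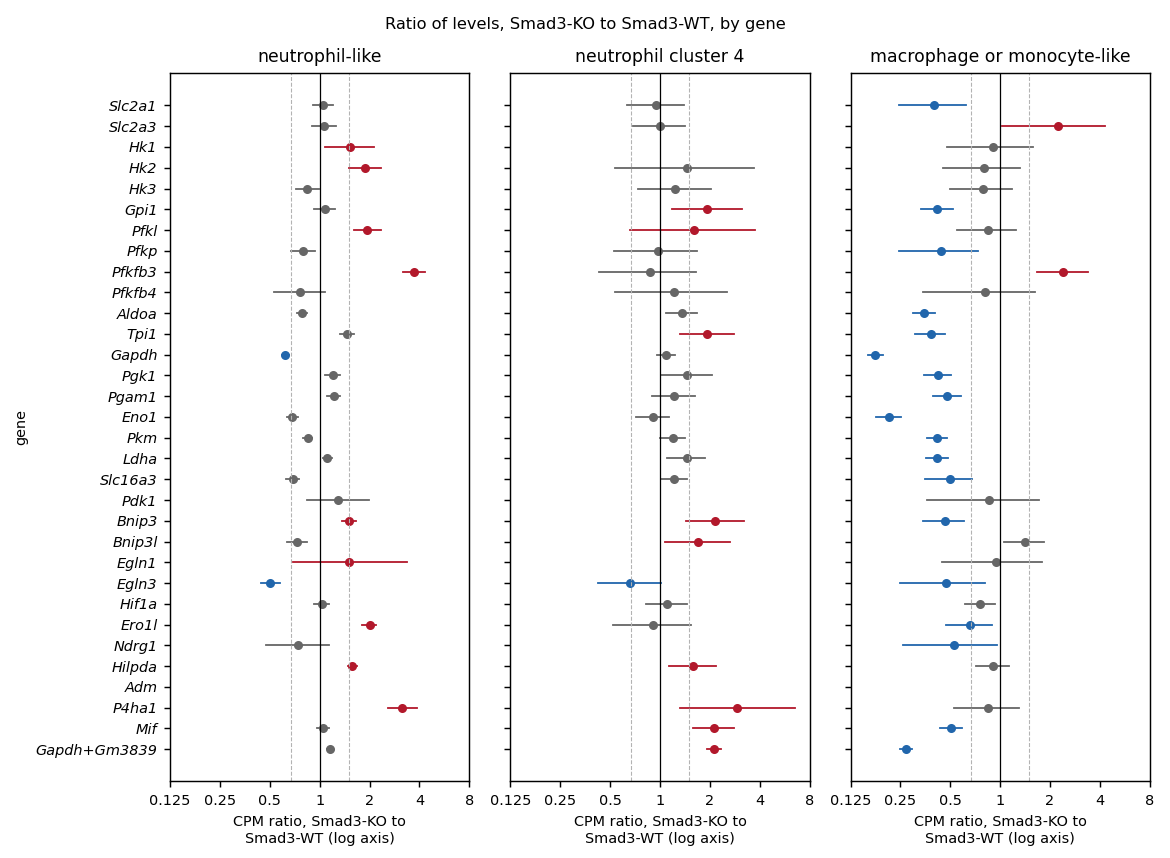
Ratio of the CPM in Smad3-KO to that in Smad3-WT, on a log axis, for each gene compared but Gm3839, which is summed with Gapdh in the lowest line, in neutrophil-like cells, in neutrophil-like cluster 4 alone and in macrophage or monocyte-like cells, with exact 95% intervals and dashed lines at the 1.5-fold limits. In neutrophil-like cells Pfkfb3, P4ha1 and Ero1l lie at 3.69, 3.15 and 2.0, while most glycolytic enzymes lie below 1 in macrophage or monocyte-like cells, as for Ldha at 0.418.

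Among the regulators of glycolytic flux, Pfkfb3, which makes the allosteric activator of phosphofructokinase, was at 142 CPM (124 to 162) in neutrophil-like cells of Smad3-WT and 524 CPM (484 to 566) in those of Smad3-KO, with a ratio of 3.69 (3.16 to 4.31). Its relative Pfkfb4 did not follow, at 58.3 CPM in Smad3-WT and 44.3 CPM in Smad3-KO. Pfkfb3 therefore made up 70.9% (65.6 to 75.8) of the UMIs of this pair in Smad3-WT and 92.2% (90.0 to 94.1) in Smad3-KO. Of the phosphofructokinases, Pfkl was at 113 CPM and 219 CPM, a ratio of 1.94 (1.60 to 2.35). The platelet-type Pfkp was at 250 CPM and 198 CPM, and its share of the Pfkl, Pfkp and Pfkm family was 68.8% in Smad3-WT and 47.5% in Smad3-KO. Pdk1, a kinase that inhibits pyruvate dehydrogenase, had a wide interval around its ratio of 1.29 (0.842 to 1.98).

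Hexokinases trap glucose as its phosphate, and neutrophil-like cells drew on 3 of them. Hk2, the form induced by hypoxia, was at 90.0 CPM (75.9 to 106) in Smad3-WT and 168 CPM (146 to 193) in Smad3-KO neutrophil-like cells. Hk1, the widely expressed form, was at 42.2 CPM and 63.9 CPM, with a ratio of 1.52 (1.08 to 2.13). Hk3, the hexokinase of myeloid cells, was at 240 CPM and 202 CPM, with a ratio of 0.842 (0.714 to 0.990). Among hexokinase UMIs, Hk3 thus held 64.4% (60.5 to 68.3) in Smad3-WT and 46.5% (42.2 to 50.9) in Smad3-KO, and Hk2 held 24.2% and 38.8%. These shares do not depend on how the libraries are scaled against each other.

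Of the glucose transporters, Slc2a1, the widely expressed one, was at 277 CPM in Smad3-WT and 290 CPM in Smad3-KO neutrophil-like cells (ratio 1.05, 0.907 to 1.21). Slc2a3, a transporter of high affinity, was at 205 CPM and 218 CPM (ratio 1.06, 0.902 to 1.26), so the counting intervals of both ratios included 1. A related transporter outside the set, Slc2a6, was at 113 CPM and 258 CPM. The lactate exporter Slc16a3 was at 883 CPM (837 to 930) in Smad3-WT and 605 CPM (562 to 650) in Smad3-KO, a ratio of 0.685 (0.626 to 0.750) that did not reach the fold. It made up 99.9% and 99.1% of the UMIs of Slc16a3, Slc16a1 and Slc16a7 in the neutrophil-like cells of Smad3-WT and Smad3-KO. Ldha made up 100% and 99.9% of the UMIs of Ldha and Ldhb there.

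Enzymes of the glycolytic chain had ratios on both sides of 1 in neutrophil-like cells. The isomerase Tpi1 was at 531 CPM in Smad3-WT and 777 CPM in Smad3-KO, a ratio of 1.46 (1.33 to 1.61). Pgk1 and Pgam1, which act after Gapdh, had ratios of 1.20 and 1.22, Gpi1 had 1.07, and Ldha had 1.11 (1.04 to 1.19). The aldolase Aldoa, the pyruvate kinase Pkm and the enolase Eno1 had lower ratios, of 0.779, 0.845 and 0.684. None of these 8 enzymes passed the fold in either direction in CPM, although the counting intervals of all but Gpi1 excluded 1. Gapdh passed it, at 3872 CPM (3776 to 3969) in Smad3-WT and 2403 CPM (2317 to 2491) in Smad3-KO, a ratio of 0.621 (0.594 to 0.649). The direction of Gapdh turned when its copy was added, as described next.

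Gm3839 was at 6.83 CPM (3.41 to 12.2) in Smad3-WT and 2078 CPM (1998 to 2161) in Smad3-KO among neutrophil-like cells, a ratio of 304 (170 to 611). With both genes summed, Gapdh and Gm3839 were at 3878 CPM in Smad3-WT and 4481 CPM in Smad3-KO, a ratio of 1.16 (1.11 to 1.20). Of these summed UMIs, Gm3839 held 46.4% (45 to 47.7) in neutrophil-like cells of Smad3-KO. Its share was 35.2% in macrophage or monocyte-like, 49.1% in dendritic-like, 49.5% in T or NK-like, 53.7% in B-like and 36.7% in fibroblast-like cells of Smad3-KO, and between 0.0472% and 0.609% in the classes of Smad3-WT with at least 20 cells. The split was thus present in every class of host cells of Smad3-KO. Among neutrophil-like cells with at least 5 UMIs of the pair, 461 of 474 in Smad3-KO and 5 of 484 in Smad3-WT had a UMI of Gm3839, with a median share of 50% per cell in Smad3-KO. The 19 carcinoma-like barcodes of Smad3-KO that the Smad3-WT library also held had a median of 607 UMIs, 1.14% of those of their Smad3-WT partners in the median, so they are not shown to be cells of Smad3-KO tumors. In them 0 of 144 UMIs of the pair were of Gm3839, with an exact interval up to 2.53%. The enolase Eno1 showed a smaller split with its near-identical copy Eno1b, which aligned to it with 99.4% identity over 1385 bases. Eno1b held 11.1% of the UMIs of the pair in Smad3-KO neutrophil-like cells and between 0.546% and 1.74% in the classes of Smad3-WT. Reads of near-identical copies can be assigned to either, so the levels of Gapdh, Gm3839, Eno1 and Eno1b are uncertain 1 by 1, and the source of the split was not tested. The aligned stretch began at base 75 of 1273 of the Gapdh transcript and at base 518 of 1902 of that of Eno1. Where the reads of this 5′ kit lay was not tested.

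**Figure D3:**
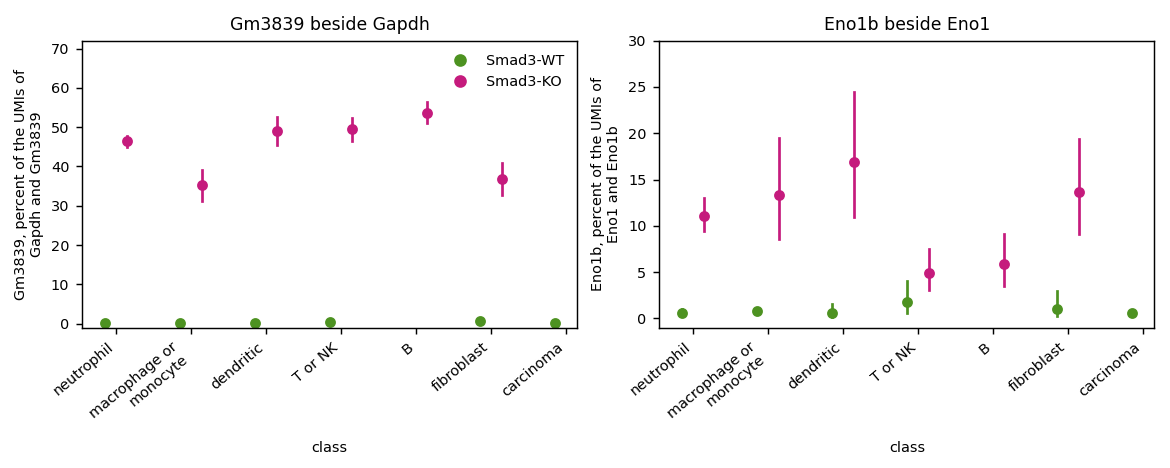
Share of the UMIs of Gapdh and Gm3839 that were assigned to Gm3839, and of Eno1 and Eno1b assigned to Eno1b, in percent, by cell class and library, with exact 95% intervals. For Gm3839 every Smad3-KO host class stands between 35.2% and 53.7% and every Smad3-WT class below 1%, the highest at 0.609%.

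Genes known as targets of the hypoxia-inducible factor lay on both sides of 1 in neutrophil-like cells. P4ha1, a prolyl hydroxylase of collagen, was at 88.8 CPM (74.8 to 105) in Smad3-WT and 280 CPM (251 to 311) in Smad3-KO, a ratio of 3.15 (2.58 to 3.86). Ero1l, the oxidase that forms disulfides in the endoplasmic reticulum, was at 410 CPM (379 to 442) and 817 CPM (767 to 870), a ratio of 2.0 (1.81 to 2.20). Hilpda and Bnip3, a mitophagy receptor, had ratios of 1.57 (1.48 to 1.67) and 1.5 (1.36 to 1.66). These 4 genes were higher in Smad3-KO by the fold, and their intervals excluded 1. Egln3, the hypoxia-induced prolyl hydroxylase, stood on the other side, at 489 CPM (456 to 524) in Smad3-WT and 246 CPM (219 to 275) in Smad3-KO, a ratio of 0.503 (0.439 to 0.575). Bnip3l, the relative of Bnip3, was at 363 CPM and 266 CPM, a ratio of 0.732 (0.637 to 0.839). Ndrg1 had a ratio of 0.734 (0.471 to 1.13) and Egln1, with 14 and 16 UMIs, 1.51 (0.690 to 3.34), both with intervals that held 1. Mif, a cytokine that is also a tautomerase, was at 887 CPM and 926 CPM.

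The isoenzyme shares followed these differences. Bnip3 made up 56.7% (54.0 to 59.4) of the UMIs of Bnip3 and Bnip3l in Smad3-WT neutrophil-like cells and 72.9% (70.3 to 75.4) in Smad3-KO. Egln3 made up 93.7% (91.8 to 95.2) of Egln UMIs in neutrophil-like cells of Smad3-WT and 86.2% (82.1 to 89.7) in those of Smad3-KO. In macrophage or monocyte-like cells it made up 57.0% (53.5 to 60.5) in Smad3-WT and 35.1% (20.2 to 52.5) in Smad3-KO. The last share rests on 13 of 37 UMIs.

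**Figure D4:**
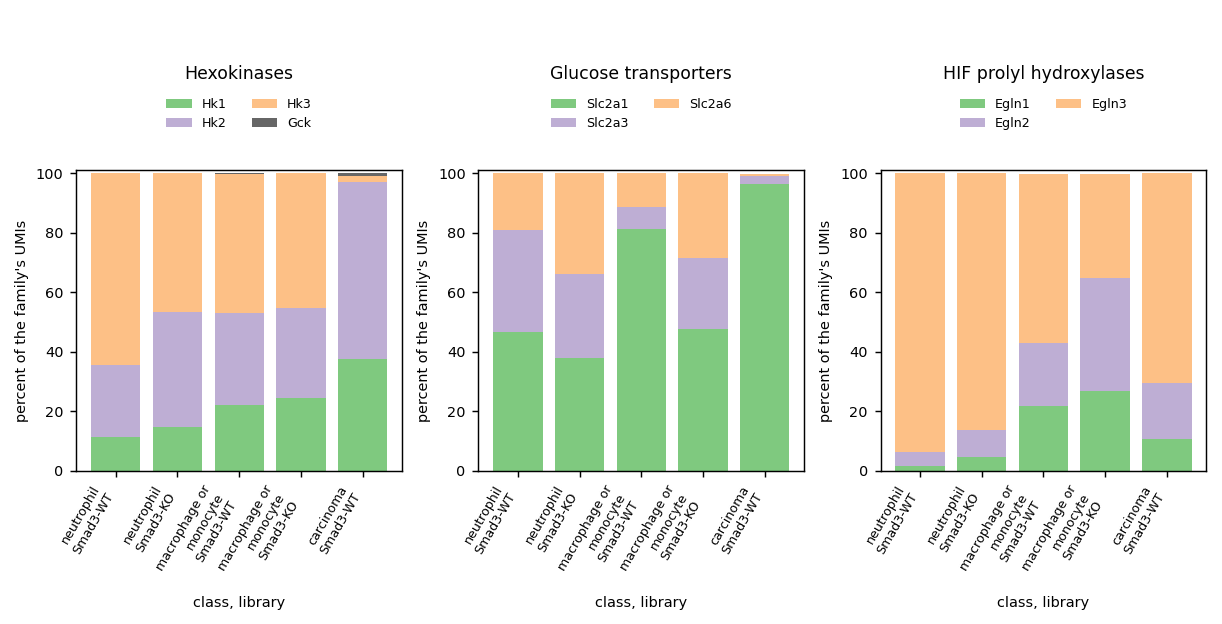
Stacked shares of the UMIs of hexokinases, glucose transporters and prolyl hydroxylases held by each gene of the family, in percent and without intervals, by class and library. Hk3 holds 64.4% of the hexokinase UMIs of Smad3-WT neutrophil-like cells, 46.5% of those of Smad3-KO and 2.27% in carcinoma-like cells, where Hk2 holds 59.3%.

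Neutrophil-like clusters were made up differently in each library, so a difference of the class can be one of its clusters. Of the 973 Smad3-KO cells, 726 lay in cluster 1, while the Smad3-WT cells lay in cluster 2 (645), cluster 5 (515), cluster 4 (426) and cluster 10 (227). The clusters were made without the members and the wider list of related genes. Cluster 4, led by Retnlg and Cxcr2, was the neutrophil-like cluster in which each library had at least 50 cells, 426 of Smad3-WT and 148 of Smad3-KO. Its cells were not alike in the 2 libraries. Among neutrophil markers, Ly6g was at 27.8 CPM in Smad3-WT and 245 CPM in Smad3-KO. Il1r2 was at 3099 CPM and 1538 CPM, while Cxcr2 was at 1025 CPM and 1057 CPM. The part of these differences in the ratios was not tested. Within cluster 4, 9 of 27 members, Gm3839 among them, were higher in Smad3-KO by the fold and 1 was lower. The shares of 2118 genes were 18.4% and 26.4%, and the median ratio was 1.24 against 0.940 for all genes. P4ha1 (2.93, 1.32 to 6.56), Bnip3 (2.15, 1.43 to 3.20), Mif (2.11, 1.58 to 2.80), Gpi1 (1.93, 1.18 to 3.13), Tpi1 (1.93, 1.32 to 2.81), Bnip3l (1.69, 1.07 to 2.64) and Hilpda (1.58, 1.14 to 2.17) were higher there, as was Pfkl with an interval that held 1. Bnip3l thus stood on the opposite side of 1 from its ratio in the whole class, as did Aldoa, at 1.36 (1.09 to 1.68), and Slc16a3, at 1.22 (1.02 to 1.45). Egln3 was again lower, at 0.661 (0.421 to 1.01), with an interval that reached 1. For 2 of the genes with the highest ratios in the whole class, the ratio lay near 1 in cluster 4, at 0.868 (0.427 to 1.65) for Pfkfb3 and 0.913 (0.521 to 1.54) for Ero1l. Gapdh stood at 1.09 in cluster 4, and at 2.11 (1.91 to 2.33) together with Gm3839. Hk3, Hk2 and Hk1 had 53, 15 and 10 UMIs in cluster 4 of Smad3-WT, and 24, 8 and 7 UMIs in that of Smad3-KO. Pfkfb3 and Pfkfb4 had 41 and 25 UMIs there in Smad3-WT, and 13 and 11 UMIs in Smad3-KO. On these few UMIs, Pfkfb3 did not hold a larger share of its pair in Smad3-KO, unlike in the whole class.

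Levels of the set also differed between clusters of the same library. Among the 4 neutrophil-like clusters of Smad3-WT with at least 50 cells, the members took 1.25% of UMIs in cluster 4, 1.38% in cluster 2, 1.98% in cluster 10, which was led by interferon-induced genes such as Ifit3, and 2.82% in cluster 5, which was led by genes such as Hcar2 and Cxcl3. Cluster 5 had the highest level for 26 of 32 members, cluster 4 for 3 and cluster 10 for 3, against 17.5%, 21.5% and 17.3% of 4837 genes. The 4837 genes had at least 20 UMIs in these clusters, a limit not set for the members. Gm3839 and Egln1, counted for cluster 5, and Adm, counted for cluster 10, were under it. Hilpda was at 343 CPM (282 to 413) in cluster 4, 617 CPM (558 to 680) in cluster 2, 1716 CPM (1544 to 1902) in cluster 10 and 2731 CPM (2575 to 2895) in cluster 5, an order in which no intervals overlapped. Bnip3 ran in the same order, at 185, 276, 630 and 938 CPM, but the intervals of clusters 4 and 2 overlapped, at 141 to 238 CPM and 237 to 319 CPM.

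Clusters 5 and 4 were chosen as those with the highest and lowest share, so their contrast is a description. From cluster 4 to cluster 5, 23 of 29 members were higher by the fold and 3 were lower, against 23.4% and 26.1% of 2937 genes. The ratio was 7.97 for Hilpda, 5.06 for Bnip3, 4.87 for Tpi1, 4.52 for Mif, 4.36 for Ero1l and 3.84 for Ldha. The 3 lower members were Slc2a3, with 373 CPM in cluster 4 against 199 CPM in cluster 5, Slc16a3, at 1296 CPM and 691 CPM, and Pfkfb4, at 77.2 CPM and 26.4 CPM. Hence the transporters Slc2a3 and Slc16a3 stood highest where most enzymes of the pathway stood lowest. Hif1a did not differ by the fold, at a ratio of 1.07 (0.884 to 1.31), between these clusters.

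In Smad3-KO, cluster 1 had Hilpda at 2478 CPM (2377 to 2582), Bnip3 at 864 CPM (805 to 926) and Ero1l at 1013 CPM (949 to 1081). Smad3-WT cluster 5 had Hilpda at 2731 CPM (2575 to 2895) and Bnip3 at 938 CPM (847 to 1035). Ero1l was at 808 CPM (724 to 899) there. Pfkfb3 was at 657 CPM (605 to 711) in cluster 1, against 223 CPM (164 to 296) in cluster 10, the highest of the Smad3-WT clusters for this gene. Cluster 20, held by 62 Smad3-KO cells and led by the granule genes Camp and Ngp of immature neutrophils, had Hilpda at 309 CPM (229 to 409) and Bnip3 at 94.7 CPM (53.0 to 156), with intervals that overlapped those of Smad3-WT cluster 4. The members took 0.993% of its UMIs, 2.18% of those of cluster 1 and, in Smad3-WT, 2.82% of those of cluster 5.

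**Figure D5:**
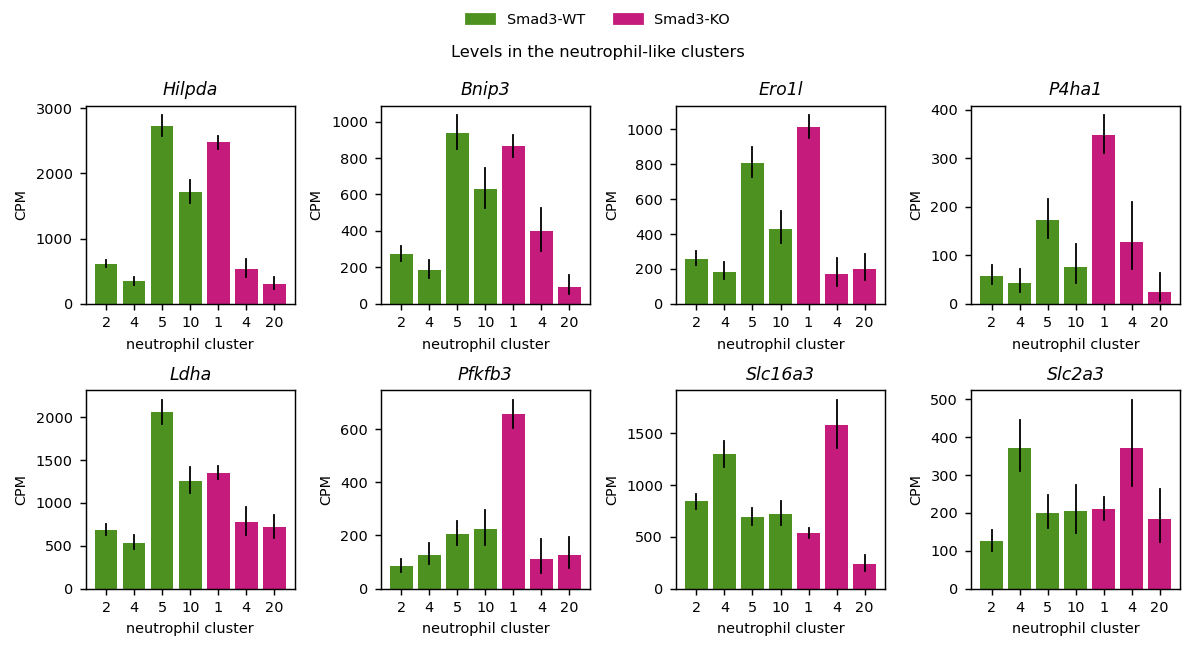
Levels of 8 of the genes in CPM in each neutrophil-like cluster and library with at least 50 cells, with exact 95% Poisson intervals. Hilpda runs from 343 CPM in cluster 4 to 2731 CPM in cluster 5 within Smad3-WT and from 309 CPM in cluster 20 to 2478 CPM in cluster 1 within Smad3-KO.

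In macrophage or monocyte-like cells the comparison of genotypes gave other counts. Of 31 members tested there, 3 were higher in Smad3-KO by the fold and 17 were lower, against 25.4% and 20.2% of 8912 genes. The median ratio was 0.525 for the members and 1.03 for all genes. The 17 lower members included Slc2a1, Gpi1, Pfkp, Aldoa, Tpi1, Gapdh, Pgk1, Pgam1, Eno1, Pkm, Ldha and Slc16a3, which form most of the path from glucose uptake to lactate export, and Bnip3, Egln3, Ero1l, Ndrg1 and Mif. Ldha was at 1459 CPM (1424 to 1494) in Smad3-WT and 610 CPM (522 to 709) in Smad3-KO, a ratio of 0.418 (0.357 to 0.487). Pgk1 was at 1037 CPM and 434 CPM, a ratio of 0.419 (0.347 to 0.502). Gapdh with Gm3839 was at 7758 CPM and 2104 CPM, a ratio of 0.271 (0.249 to 0.294). The 3 higher members were Gm3839, Pfkfb3, at 57.0 CPM (50.4 to 64.4) and 136 CPM (96.5 to 187), and Slc2a3, at 16.2 CPM (12.7 to 20.3) and 35.9 CPM (17.2 to 66.0). Slc2a3 rested on 10 UMIs in Smad3-KO. Its share of transporter UMIs in Smad3-WT was much smaller without barcodes that held markers of another class. Hilpda (0.903, 0.710 to 1.13), Hk3 (0.786, 0.499 to 1.18) and P4ha1 (0.848, 0.526 to 1.30) had intervals that held 1.

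The class rests on 113 Smad3-KO cells. Its members' share was lower in Smad3-KO in each of the 3 clusters with at least 20 cells of each library, at 2.44% and 0.994% in the Ccr2 and Vcan cluster, 1.79% and 0.682% in the C1qa and Folr2 cluster, and 3.24% and 1.08% in the Mmp12 and Hmox1 cluster. In macrophage or monocyte-like cells the carcinoma markers summed to 34.6 CPM in Smad3-WT, with 0 of 5 at 0, and to 3.59 CPM in Smad3-KO, with 4 of 5 at 0. Neutrophil markers summed to 5468 CPM and 6555 CPM in them, against 86890 CPM and 100562 CPM in neutrophil-like cells, and the part of RNA from other cells in the ratios was not tested.

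Dendritic-like and fibroblast-like cells were compared after the other values were seen. In dendritic-like cells 7 of 29 were higher, near the 24.8% of 5199 genes, and 15 were lower, against 19.5%. Lower were Gpi1, Pfkp, Aldoa, Tpi1, Gapdh, Pgk1, Pgam1, Eno1, Pkm, Ldha, Slc16a3, Pdk1, Hif1a, Ndrg1 and Mif. Higher were Pfkfb3 (ratio 3.99), Ero1l (2.65), Hilpda (1.87), Slc2a3, Gm3839, Bnip3l and P4ha1. Neutrophil markers summed to 3758 CPM in dendritic-like cells of Smad3-WT and 5814 CPM in those of Smad3-KO, and their part in these ratios was not tested. In fibroblast-like cells 4 of 29 were higher and 7 lower, against 19.8% and 18.2% of 5081 genes, shares near those of the members. Ndrg1, a gene of stress and differentiation, and Adm were higher in fibroblast-like cells, at ratios of 3.54 and 2.47. All these comparisons use the same pair of libraries, so a difference between libraries in handling or chemistry cannot be told apart from genotype in any of them. Over all cells that passed, 10 members were higher and 10 lower, against 31.6% and 32.8% of 13181 genes, and the classes were present in unequal numbers.

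Within Smad3-WT, carcinoma-like cells were compared with neutrophil-like cells of the same library. Carcinoma-like cells had 6 of 32 members higher by the fold and 16 lower, against 59.1% and 25.2% of 11117 genes, and the median ratio was 0.629 for the members and 2.15 for all genes. The higher ones were Adm, at 75.7 CPM (71.0 to 80.6) against 1.86 CPM (0.384 to 5.44), a ratio of 40.6 (13.9 to 197), Pgk1 (ratio 2.18), Mif (2.03), Egln1 (1.88), Eno1 (1.61) and Gapdh (1.58). Genes typical of neutrophils among the 16 lower ones were Hk3, at 1.49 CPM (0.898 to 2.33) against 240 CPM, and Slc2a3, at 2.20 CPM (1.46 to 3.18) against 205 CPM. Hypoxia response members lay on both sides. Lower in carcinoma-like cells were Hilpda at 96.3 CPM (ratio 0.0762), Bnip3 at 69.4 CPM (0.146), Ero1l at 65.1 CPM (0.159), Hif1a at 112 CPM (0.214), Egln3 at 106 CPM (0.217), Bnip3l (0.307) and P4ha1 (0.344), while Adm, Egln1 and Mif were higher, as above, and Ndrg1 lay at 1.02 (0.785 to 1.35). Of 30 related genes compared here, 14 were higher and 12 lower, against the 59.1% and 25.2% of all genes. The lower ones were Slc2a6, Pgd, Taldo1, Vegfa (0.0840, 0.0650 to 0.108), Ankrd37, Arnt, Vhl, Kdm3a, Mxi1, Ddit4, Bhlhe40 and Nfil3. The higher ones were Pfkm, Eno1b, Eno3, Bpgm, Slc16a1, Pdk3, Pgm2, Tkt, Tigar, Hif1an, Plod2 (33.3, 11.4 to 162), P4ha2, Ak4 (5.13, 2.16 to 16.0) and Car9. Aldoa, Tpi1, Pgam1, Pkm and Ldha lay within the fold, at ratios from 0.739 to 1.17. All these are ratios of CPM, a share of the UMIs of the cells and not an amount per cell. A Hilpda UMI was present in 54.1% of carcinoma-like and 31.9% of neutrophil-like cells, at median depths of 20590 and 740 UMIs. At 500 UMIs drawn per cell, the shares were 3.58% and 25.3%.

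A scaling by the median of ratios lowered every log2 ratio of this comparison by 1.0 and gave 1 higher and 25 lower members. It moved all genes alike. The shares of all genes given above are for CPM, so they are no background for these counts. The carcinoma markers stood in neutrophil-like cells at 0.0153 to 0.0273 of their level in carcinoma-like cells. Of the 31 members compared, 30 stood above the highest of these quotients, with Adm at 0.0246 within their range.

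Carcinoma-like cells also used other isoenzymes. Hk2 and Hk1 made up 59.3% and 37.7% of hexokinase UMIs, and Hk3 2.27% (1.37 to 3.52), a share that was 0% once barcodes with markers of another class were left out, which kept 53 of 586 cells. No interval is given for this 0%, so an absence of Hk3 is not shown. Slc2a1 made up 96.6% (95.4 to 97.6) of the UMIs of Slc2a1, Slc2a3 and Slc2a6, against 46.6% (43.4 to 49.8) in Smad3-WT neutrophil-like cells. Slc16a3 made up 75.6% of lactate transporter UMIs, with Slc16a1 at 24.3%, and Pdk1 39.8% (36.5 to 43.1) of the Pdk family, against 65.3% (53.1 to 76.1) in neutrophil-like cells.

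Macrophage or monocyte-like cells of Smad3-WT had 8 of 32 members higher than neutrophil-like cells by the fold and 11 lower, against 58.8% and 16.8% of 9477 genes, and the median ratio was 1.09 against 1.93 for all genes. Gapdh, Eno1, Pgk1, Gpi1, Tpi1, Egln1 (4.38, 2.54 to 8.17), Ndrg1 (1.92, 1.47 to 2.56) and Adm (4.87, 1.56 to 24.6) were higher in them. Lower were Hilpda, Egln3, Bnip3l, Ero1l, Slc2a1, Slc2a3, Slc16a3, Hk3, Pfkp and both Pfkfb genes. The macrophage or monocyte markers stood in neutrophil-like cells of Smad3-WT at 0.0142 to 0.541 of their level in macrophage or monocyte-like cells. Above the highest of these quotients stood 26 of 32 members, all but Gpi1, Gapdh, Pgk1, Egln1, Ndrg1 and Adm. The part of RNA from other cells in these levels was not tested.

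Of 43 further genes of these pathways, 20 could be compared between genotypes in neutrophil-like cells, with 8 higher and 5 lower in Smad3-KO by the same fold, against the 12.6% and 41.9% of all genes. The higher ones included Slc2a6 (2.29, 1.90 to 2.76), G6pdx (2.20, 1.46 to 3.36) and Tkt (1.54, 1.17 to 2.02), enzymes of the pentose phosphate pathway in the case of the latter pair, Pgm1 (1.93) and Pgm2 (1.80), which link glycogen to glycolysis, and Eno1b. Taldo1, also of the pentose phosphate pathway, was lower, at 642 CPM in Smad3-WT and 291 CPM in Smad3-KO (0.453, 0.40 to 0.512). Among hypoxia-linked genes, Vegfa (1.67, 1.35 to 2.07) and Ddit4 (1.81, 1.49 to 2.19) were higher, and Arnt, the partner subunit of Hif1a (0.317, 0.178 to 0.536), Cited2, which limits its coactivator (0.488, 0.392 to 0.603), Nfil3 (0.416, 0.362 to 0.477) and Mxi1 (0.640, 0.466 to 0.871) were lower.

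The authors' own partition of all barcodes into 13 clusters, whose averages pool both genotypes and carry no error, gave a second view. Clusters 1, 3 and 6 led in neutrophil markers and cluster 10 in those of neutrophil precursors, while cluster 4 led in red cell markers with neutrophil markers next and held S100a8, a neutrophil gene, at 33.7. In these clusters, the average of Hilpda was 3.97 in cluster 3, 2.87 in cluster 4, 1.34 in cluster 1, 0.466 in cluster 10, which holds Camp at 10.1, and 0.264 in cluster 6. Their cluster 3 was highest for 11 of 32 members and their macrophage cluster 5 for another 11, against 5.02% and 2.87% of 13217 genes. Slc16a3 (1.60) and Slc2a3 (0.357) were highest in cluster 6, where Hilpda was lowest of these clusters. Gapdh was highest in macrophage cluster 5, at 11.5, and Mif in carcinoma cluster 11, at 2.46. The unit is the authors' scaled average UMIs per cell.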

How the data were processed

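Per the submitters' processing notes and the file header, reads were processed by the authors with Cell Ranger 3.0.2 against the mouse build mm10. Raw counts of UMIs for every gene and barcode, without normalization, were deposited by the authors. The deposited averages per library are a signal, UMIs scaled to the median barcode. The deposited averages per cluster of the authors, 13 in all, were used as a score on that scale. The columns of the authors' fold changes and p-values were not used. The genotype of each barcode suffix follows from the deposited averages of Smad3-WT and Smad3-KO cells, which the summed counts matched to within 3.58e-08.

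A cell needed 200 genes, 500 UMIs and under 10% of them mitochondrial, which 3902 cells of Smad3-WT and 2433 of Smad3-KO met, and an upper limit of 20000 UMIs then held for all but carcinoma-like cells. They were clustered with scanpy 1.11.5 and igraph 0.11.9 (2000 variable genes, 30 principal components, 15 neighbours, Leiden resolution 1.0, seed 1), with the 32 members and 43 related genes left out. Of 20 clusters, those led by at least 3 markers of a class were named, and 4 stayed unnamed. These held 130 cells of Smad3-WT and 263 of Smad3-KO under the upper limit. The largest of them had 176 Smad3-WT barcodes before that limit, with a median of 18254 UMIs. No doublet caller was run, and an alternative left out barcodes with 2 UMIs of markers of another class.

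UMIs were summed per class and library and divided by all UMIs of those cells (CPM), with exact Poisson intervals, exact Clopper-Pearson intervals for shares, and exact conditional binomial intervals for ratios, all at 95%. With 1 library per genotype no test was made. A gene needed 20 UMIs over both groups, counted from a ratio of 1.5, and a floor of 3 UMIs stood for 0. Scripts were tested on simulated data. Every member is named or counted. Related genes past the fold are named for the genotypes in neutrophil-like cells and for carcinoma-like against neutrophil-like cells. The members and lists were chosen with earlier results of these data known. Intervals came from scipy 1.17.1 in Python 3.11.15, tables from pandas 2.3.3 and figures from matplotlib 3.10.9. Alternatives covered the filters on cells and genes, the scaling, averaging over cells, thinning, the clustering, the fold, mixed and shared barcodes and the joining of copies.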

Additional observations from a re-analysis of the deposited data

Results flagged for a closer look

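Bnip3 and Ero1l lay past the fold in opposite directions in the 2 main host classes, between the same libraries. Bnip3 had a ratio of Smad3-KO to Smad3-WT of 1.5 in neutrophil-like cells and 0.462 in macrophage or monocyte-like cells. Ero1l had a ratio of 2.0 in neutrophil-like cells and 0.657 in macrophage or monocyte-like cells. The neutrophil value of Bnip3 was 1.47 to 1.5, under the fold, in several alternatives, and that of Ero1l was 0.913 (0.521 to 1.54) in cluster 4, where both libraries had at least 50 cells. The macrophage value of Ero1l was 0.676 to 0.778, within the fold, in the alternatives that moved it. With 1 library per genotype the difference between the classes was not tested.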

How the results depend on the processing

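Of the main counts and shares recomputed under an alternative, 94 stayed close and 24 moved. In neutrophil-like cells, 10 members higher in Smad3-KO became 3 with a fold of 2 and 14 with median-of-ratios scaling, and the 2 lower ones became 0 with a fold of 2, 0 with median-of-ratios scaling, 4 with 100 principal components and resolution 0.1, 1 in cluster 4 alone and 1 with copies joined. In carcinoma-like cells, 6 higher members became 3 with a fold of 2 and 1 with median-of-ratios scaling, which also turned 16 lower members into 25. Shares of all genes under the fold of 2, this scaling or the 100 principal components are not given. Whether the members moved apart from genes in general under these settings was thus not tested. Shares of the members' UMIs without Gapdh and Gm3839 were 1.42% and 1.54% in neutrophil-like cells of Smad3-WT and Smad3-KO, 1.54% and 0.686% in the macrophage or monocyte class, and 1.12% in carcinoma-like cells. As means over cells they were 2.08% in Smad3-KO neutrophil-like, 2.46% and 1.02% in macrophage or monocyte-like and 1.61% in carcinoma-like cells. Macrophage or monocyte-like cells had a share of 2.30% in Smad3-WT with no upper limit on UMIs, and with 100 principal components 2.24% in Smad3-WT and 0.782% in Smad3-KO, while carcinoma-like cells under the upper limit had 1.41%. Without cells that held markers of another class, Slc2a3 had 0.721% of transporter UMIs in Smad3-WT macrophage or monocyte-like cells, against 7.36%. Hk3 then had 0% of hexokinase UMIs in carcinoma-like cells, of which 53 of 586 were left. Among values of single genes past the fold, 332 stayed close, 25 moved and a further 5 turned direction. Those 5 were Pfkfb3 (0.868), Ero1l (0.913) and Gapdh (1.09) in cluster 4 alone, Gapdh with Gm3839 (1.16), and Ndrg1 in macrophage or monocyte-like cells with 50 principal components (1.05). Hk1 and Bnip3 sat at the fold, at 1.42 to 1.49 and 1.47 to 1.5 in the alternatives that moved them, and Egln1 at 1.10 to 1.49. Cluster 4 alone, shared barcodes, the precursor and unnamed clusters and the joined copies were chosen after seeing the data. The causes were not tested. Not run were macrophage or monocyte-like cells without mixed barcodes, where 32 of 113 Smad3-KO cells were left, and carcinoma-like results with 100 principal components, where no such cluster was named. No paired analysis was possible because each genotype has 1 library, which also leaves no replicate to leave out.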
